A study of Mus musculus with 24 samples.

Results

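Of 7915 genes with an entry of their own in the deposited expression table, 22 made up the set described here, chosen by their deposited log2 values: genes whose lowest value among the 12 spleen and lymph node libraries lay above their highest value among the 12 adipose tissue and lung libraries. That order held for 24 genes, 0.303% of the entries, and Trbc1 and Trbc2 were then left out by name along with other T cell receptor, transporter and lymphocyte marker genes. The reverse order, every adipose and lung library above every spleen and lymph node library, held for 120 genes or 1.52%. Because these values chose the genes, the difference between lymphoid tissues and the other tissues is given as a description and was not tested. The table itself holds only genes that the authors kept at a q-value under 0.05. A one-way test over the 4 tissues returned the authors' p-value for all 7915 genes (within 0.001 on the log10 scale), so every gene in the table had already passed a tissue test, and shares of genes that differ between tissues do not refer to the whole genome.

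The libraries came from γδ T cells, the T lymphocytes that carry a γδ in place of an αβ receptor, of male C57Bl/6 mice aged 16 to 22 weeks that carry a PLZF-GFP reporter. PLZF+ and PLZF- cells of spleen, inguinal lymph node, lung and epididymal adipose tissue were separated by flow cytometry and sequenced with the Smart-seq2 protocol, giving 3 libraries in each of 8 groups. No group was treated, and all groups share the reporter. The series text speaks of 2 replicates per subset, pooled from 10 mice. Nothing says whether the 3 libraries of a group are separate pools, so p-values measure the spread between libraries, which may be technical.

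PLZF is a transcription factor of innate-like lymphocytes, and among γδ T cells it marks subsets that take up residence in tissues and respond rapidly with cytokines. PLZF- γδ T cells include cells that recirculate through spleen and lymph nodes. Several of the 22 genes act in cytokine signalling: UBA7 activates the interferon-induced modifier ISG15, and the adaptor encoded by Traf3ip2, also called Act1, couples IL-17 receptors to their signalling chain. Others serve the mitochondrial ribosome, chromatin, RNA processing and membrane lipids.

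Levels are given as normalized reads, meaning whole reads recovered from the deposited log2 values and divided by a relative depth whose geometric mean over the 24 libraries is 1. Recovered reads per library numbered 56632 to 824429 over the genes of the table, and lung libraries 2 and 3 were the shallowest, at relative depths of 0.170 and 0.177 in PLZF- and 0.312 and 0.329 in PLZF+ cells. Reads of 6 T cell markers in the table (Cd3e, Cd3d, Cd3g, Cd247, Lat and Thy1) made up 0.0789% to 1.02% of reads in adipose tissue, 0.208% to 0.796% in lung, 0.991% to 1.66% in spleen and 1.46% to 2.11% in lymph node. Reads of 18 myeloid markers took 4.05% to 9.52% in lung, 0.771% to 2.66% in adipose tissue, 0.396% to 2.26% in spleen and 0.176% to 3.28% in lymph node. Reads of 14 endothelial markers took 0.0372% to 5.84% in adipose tissue 0.0277% to 0.761% in lung, and at most 0.0593% in spleen and 0.0260% in lymph node. Stromal and adipocyte markers (14 genes) took 0.0943% to 2.80% in adipose tissue, 0.0257% to 0.383% in lung and at most 0.0559% in the lymphoid tissues, and 13 alveolar macrophage markers 0.509% to 2.32% in lung and at most 0.488% elsewhere. Reads of 17 B cell markers took 0.445% to 4.06% in spleen, 0.141% to 1.32% in lymph node, 0.377% to 2.40% in adipose tissue and 0.595% to 1.43% in lung. The αβ T cell markers Cd8b1, Trac, Trbc1 and Trbc2 took 0.536% to 1.04% in the lymphoid tissues and 0.0256% to 0.360% in the others, and Tcrg-C2, Tcrg-C4, Trgv2 and the γδ T cell marker 5830411N06Rik together took 0.283% to 1.36% and 0.0351% to 0.244%. Trbc1 and Trbc2 themselves held the order that chose the genes, so the separation of the αβ share is partly fixed by that order. No NK cell marker of the 9 listed was in the table. These marker shares moved with the tissues, and their part in the differences described here was not tested. In bulk libraries, fewer cells of a type and less RNA per cell cannot be told apart.

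The promoters of the genes with the largest mean differences are shown first, so that the letters stand beside the genes they belong to. Of the 22 genes, 12 had an entry among the RefSeq promoters of build GRCm38.p6, which run from 250 bases before to 50 bases after a gene's start. The 5 with the largest mean difference are printed 5′ to 3′ on the gene's strand, with capitals for a match to a motif searched on both strands. They lie at chr13:120300142-120300441 (plus strand, BC147527), chr13:76018557-76018856 (minus, Rfesd), chr1:37890362-37890661 (minus, Mitd1), chr7:127091186-127091485 (plus, AI467606) and chr7:80260965-80261264 (plus, Ngrn).
BC147527: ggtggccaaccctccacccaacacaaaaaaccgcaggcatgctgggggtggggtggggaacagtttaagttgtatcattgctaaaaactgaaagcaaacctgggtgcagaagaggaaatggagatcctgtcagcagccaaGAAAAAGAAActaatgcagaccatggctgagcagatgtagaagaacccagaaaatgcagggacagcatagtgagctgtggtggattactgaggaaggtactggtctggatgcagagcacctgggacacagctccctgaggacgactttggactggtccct
Rfesd: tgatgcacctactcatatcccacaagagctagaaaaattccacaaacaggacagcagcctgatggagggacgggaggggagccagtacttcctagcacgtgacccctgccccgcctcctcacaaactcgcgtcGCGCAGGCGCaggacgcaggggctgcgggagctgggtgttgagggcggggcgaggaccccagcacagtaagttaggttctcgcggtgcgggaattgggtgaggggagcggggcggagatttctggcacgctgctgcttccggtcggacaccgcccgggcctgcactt
Mitd1: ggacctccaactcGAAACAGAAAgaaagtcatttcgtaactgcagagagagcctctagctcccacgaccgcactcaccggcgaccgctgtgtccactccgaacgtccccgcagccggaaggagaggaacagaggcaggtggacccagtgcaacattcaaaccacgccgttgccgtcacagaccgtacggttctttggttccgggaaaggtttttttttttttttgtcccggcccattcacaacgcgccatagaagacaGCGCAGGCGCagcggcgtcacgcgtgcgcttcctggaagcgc
AI467606: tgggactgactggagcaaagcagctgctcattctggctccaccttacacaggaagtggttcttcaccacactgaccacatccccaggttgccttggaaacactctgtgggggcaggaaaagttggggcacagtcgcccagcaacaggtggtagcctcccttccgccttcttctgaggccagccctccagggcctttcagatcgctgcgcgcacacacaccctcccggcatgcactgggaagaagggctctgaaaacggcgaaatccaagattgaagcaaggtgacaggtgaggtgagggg
Ngrn: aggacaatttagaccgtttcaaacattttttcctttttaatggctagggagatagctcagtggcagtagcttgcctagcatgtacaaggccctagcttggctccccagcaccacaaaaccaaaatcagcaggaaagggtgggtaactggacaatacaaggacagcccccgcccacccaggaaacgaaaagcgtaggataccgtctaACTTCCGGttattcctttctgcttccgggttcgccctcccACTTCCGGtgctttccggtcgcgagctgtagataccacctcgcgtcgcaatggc

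Matches were few. The ETS motif CCGGAAGT was found in 3 of 12 promoters (Ngrn, Ttf1 and Dhx30), against 3.89% of 32817 mouse promoters of the same length. The interferon regulatory factor (IRF) motif, in capitals in BC147527 and near the start of the Mitd1 promoter, was found in BC147527 and Mitd1, and in 3.43% of all promoters. The NRF1 motif, in capitals in Rfesd and near the end of Mitd1, was found in Mitd1 and Rfesd, and in 4.59% of all promoters. The AP-1 motif TGANTCA was found in Tor4a and Uba7 and in 7.81% of all promoters. A CCAAT box was found in 2 of the 12, Rfesd and Ttf1, where CCAAT occurs in 37.4% of all promoters; as it is so common, it was left in lower case. None of the 12 held the searched Sp1, KLF, FOXO, TCF, RUNX, CRE, YY1 or GATA letters in this window. The 12 promoters had a median of 15 CG pairs and 57.8% G or C, against 7 and 52.7% over all promoters. The ETS and NRF1 letters hold CG, so their shares are not compared like for like. A match is a description of the letters and not of binding.

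**Figure D1:**
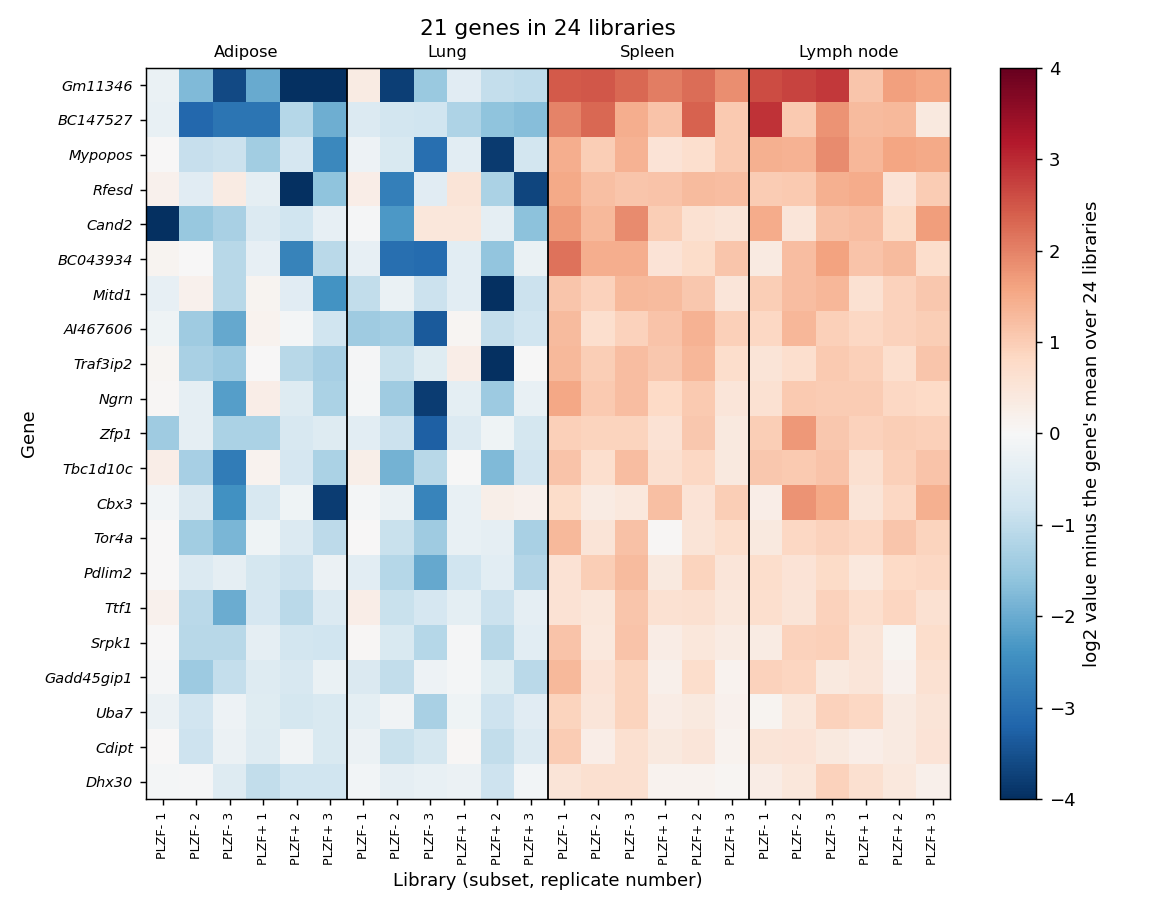
Deposited log2 value of 21 of the 22 genes (rows, ordered by mean difference) in each of the 24 libraries (columns, by tissue, subset and replicate number), minus the gene's mean over all libraries; the colour scale ends at 4 in either direction. Spleen and lymph node libraries lie above adipose and lung libraries in every row, which the choice of genes fixes, while the size of the step falls from 4.29 in Gm11346 to 0.86 in Dhx30.

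Among cytokine signalling genes, Traf3ip2 gave 62.4, 23.7 and 21.0 normalized reads in the PLZF- libraries of adipose tissue, and its PLZF+ libraries there gave 59.1, 26.9 and 22.7. Lung gave 57.1, 29.4 and 39.6 for PLZF- cells and 71.3, 0 and 57.8 for PLZF+ cells, the 0 being lung library 2. Spleen libraries gave 146, 118 and 141 for PLZF- and 127, 148 and 96.7 for PLZF+ cells, and lymph node libraries 84.1 to 128. The lymphoid mean was 117.8 ± 21.7 against 39.2 ± 21.9 (SD, n = 12 each), and PLZF+ and PLZF- libraries overlapped in each tissue.

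Uba7, the activating enzyme for ISG15, gave 131.6 ± 28.5 (SD, n = 12) normalized reads in adipose tissue and lung and 273 ± 55.6 (SD, n = 12) in the lymphoid tissues. Its highest adipose or lung library was at 165 and its lowest lymphoid library at 200.2. Outside the 22 genes, 8 of the list of interferon-induced genes were tested: Ifi47, Igtp, Zbp1, Ifit1bl1, Ifit1, Oas3, Irf9 and Mx1. All 8 were higher in lymphoid tissues than in adipose tissue and lung (limma, adjusted p under 0.05). Over all tested genes 25.9% were higher and 68.4% lower, and since the table was filtered on a tissue test, passing in this contrast is itself little evidence. Their median difference was 1.71 on the log2 scale against -1.49 over all tested genes. Ifi47, an interferon-induced GTPase, differed by 1.77 ± 0.22 (SE) and Irf9, an interferon regulatory factor, by 1.06 ± 0.24 (SE). Ifit1bl1 was the 1 gene of the 8 that passed in PLZF+ against PLZF-, at -1.80 (limma adjusted p = 0.043).

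A gene with 0 reads takes a log2 value set by the depth of the library, so medians over all tested genes include such shifts. After quantile scaling, which gives every library the same distribution of values, the median difference of all tested genes moved from -1.49 to -0.13 and that of the 22 genes, whose direction the choice fixes, from 1.87 to 2.54.

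Tbc1d10c encodes carabin, an inhibitor of calcineurin and Ras signalling in lymphocytes. Adipose libraries held 568, 186 and 66.9 normalized reads for PLZF- cells and 516, 296 and 194 for PLZF+ cells. Lung libraries held 547, 124 and 215 for PLZF- cells and 466, 138 and 277 for PLZF+ cells. Library 1 was the highest of its 3 in all 4 of these groups. Spleen libraries ranged from 620 to 1097 and lymph node libraries from 739 to 1038, all above the highest adipose library. Pdlim2, a PDZ and LIM domain protein that in mouse T cells targets STAT4 for degradation, rested on 36.2 ± 12.6 normalized reads in adipose tissue and lung and 97.3 ± 18.4 in lymphoid tissues (SD, n = 12 each).

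Ngrn, Gadd45gip1 and Dhx30 encode proteins that assemble or bind the mitochondrial ribosome. Ngrn averaged 24.2 ± 14.5 normalized reads in adipose tissue and lung and 78.1 ± 15.9 in lymphoid tissues (SD, n = 12 each). For Gadd45gip1 the means were 18.8 ± 5.83 and 45.0 ± 11.6. Dhx30, an RNA helicase, had the smallest step, from 70.4 ± 15.9 to 128 ± 23.9. Genes named Mrpl or Mrps, which encode the mitochondrial ribosomal proteins, were looked up after the values were seen: 21 of 21 tested had a positive lymphoid difference, with a median of 1.10 on the log2 scale, where 28.1% of all tested genes were positive and their median was -1.49.

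RNA and chromatin genes came next. Srpk1, a kinase of splicing factors rich in serine and arginine, averaged 130.4 ± 43.2 normalized reads in adipose tissue and lung and 301 ± 75.5 in lymphoid tissues (SD, n = 12 each). Ttf1, which ends transcription by RNA polymerase I, averaged 32.2 ± 13.7 and 79.1 ± 11.7. Cbx3, the heterochromatin protein HP1γ, averaged 11.2 ± 6.79 and 33.8 ± 12.6. Cbx3 transcripts match 11 other genes at 95% identity or more over at least 200 bases, among them several Cbx3 pseudogenes, so its reads are uncertain. Zfp1, a zinc finger protein, averaged 14.4 ± 6.20 and 53.1 ± 13.1. Of 33 other RNA processing genes tested, 22 were higher and 8 lower in lymphoid tissues, and of 42 other Zfp genes, 30 were higher and 9 lower (limma, adjusted p under 0.05), with medians of 0.67 and 0.94 on the log2 scale, against 25.9% higher, 68.4% lower and a median of -1.49 over all tested genes.

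Among genes of membranes, protein turnover and cell division, Cdipt, the phosphatidylinositol synthase, averaged 131.8 ± 33.0 normalized reads in adipose tissue and lung and 249 ± 42.2 in lymphoid tissues (SD, n = 12 each). Tor4a, a torsin ATPase, averaged 100.4 ± 41.9 and 279 ± 65.5. Mitd1, which works with ESCRT-III in cytokinesis, averaged 28.2 ± 15.2 and 95.4 ± 16.3, and Rfesd, a protein with a Rieske iron-sulfur domain, 12.2 ± 10.0 and 44.0 ± 7.64. Cand2, a cullin-associated protein, was closest to the threshold: its lowest lymphoid log2 value was 4.36 and its highest other value 4.34.

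The largest steps belonged to little-characterised genes. Gm11346, annotated as a transcribed processed pseudogene at chr13:24596347-24604925 (minus strand, GRCm38), held 32.9, 11.3 and 2.62 normalized reads in adipose tissue for PLZF- cells and 9.19, 0 and 0 for PLZF+ cells. Lung libraries held 49.6, 0 and 11.3 (PLZF-) and 28.9, 19.2 and 18.2 (PLZF+). Spleen libraries held 217, 224 and 195 (PLZF-) and 164, 187 and 144 (PLZF+), and the subsets did not overlap. In lymph node too, the PLZF- libraries (246, 259 and 281) lay above the PLZF+ libraries (85.1, 123 and 116). Over the 4 tissues, Gm11346 did not pass in PLZF+ against PLZF- (-0.80 ± 0.45 (SE) on the log2 scale, limma adjusted p = 0.65). The share of all tested genes with such orders was not counted. Gm11346 lies within Ripor2 on the opposite strand, and Ripor2, listed as Fam65b, averaged 642 normalized reads in lymphoid libraries and 251 in the others. Strand use in the counting is not given in the sources used here, so reads of the pair cannot be told apart.

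BC147527 had 0 reads in 8 of the 12 adipose and lung libraries and at most 3.76 normalized reads in the rest, while the 12 lymphoid libraries held 6.22 to 35.9. Its transcript matches Gm8953 at 96.4% over 825 bases, so the reads of these genes may be split. Mypopos, antisense to Mypop, averaged 10.8 ± 7.17 and 56.0 ± 14.2 normalized reads (SD, n = 12 each), and Mypop itself 0.745 and 3.55. Mypopos and Mypop overlap on opposite strands, so the limit given for Gm11346 and Ripor2 applies to this pair too. The noncoding RNA BC043934 averaged 12.7 ± 8.90 and 56.0 ± 21.2. AI467606, a protein-coding gene with no role given here, held 233, 96.9 and 63.0 (PLZF-) and 286, 249 and 151 (PLZF+) normalized reads in adipose tissue. Its lung libraries held 98.0, 100.1 and 22.6 (PLZF-) and 276, 134 and 149 (PLZF+). Its lymphoid libraries ranged from 423 to 684. In lung, but not in adipose tissue, the PLZF+ libraries of AI467606 all lay above the PLZF- libraries. The share of all tested genes with such an order in lung was not counted. Over the 4 tissues, AI467606 did not pass in PLZF+ against PLZF- (limma adjusted p = 0.35).

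**Figure D2:**
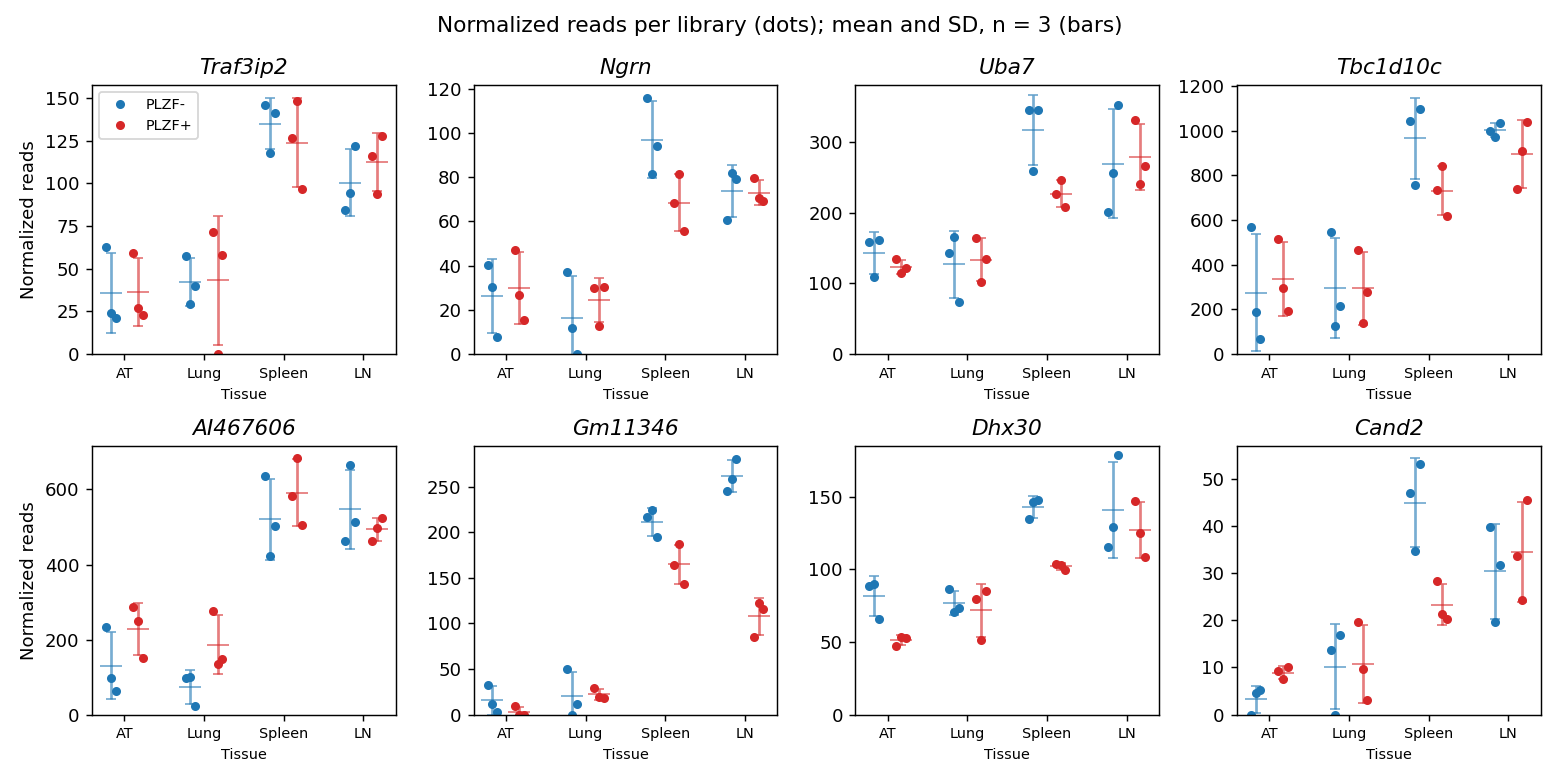
Normalized reads (linear axis from 0) of 8 of the genes in each library (dots), with mean and SD of the 3 libraries of a group (bars), for adipose tissue (AT), lung, spleen and lymph node (LN). Gm11346 is higher in PLZF- than in PLZF+ libraries in lymph node (246 to 281 against 85.1 to 123) and in spleen (195 to 224 against 144 to 187), while Traf3ip2 overlaps between the subsets in every tissue. Over all tissues, Gm11346 did not pass in PLZF+ against PLZF- (limma adjusted p = 0.65).

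Across the 22 genes, the ratio of the mean in lymphoid tissues to that in adipose tissue and lung ran from 1.82 to 19.0 with a median of 3.01, and it passed 2 in 20 genes and 4 in 5. Relative to the mean, the spread was wider in adipose tissue and lung for 21 of 22 genes, with a median coefficient of variation of 54.8% against 21.9%. The choice of genes gives adipose tissue and lung the lower means, and the shallowest libraries were from lung. Of 264 gene and library pairs in adipose tissue and lung, 26 had 0 reads, and 17 of these fell in the 4 shallow lung libraries. Reads were found in all 24 libraries for 11 of the genes. Just inside the threshold lay Cbx3 and Cand2, with gaps of 0.031 and 0.022 on the log2 scale, and just outside lay Coq9, Fam192a and Dctn5, with gaps of -0.0011, -0.0013 and -0.0062.

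The mean of the 22 centred log2 values was -1.40 to -0.38 in adipose tissue, -1.48 to -0.22 in lung, 0.64 to 1.27 in spleen and 0.80 to 1.21 in lymph node. Library 1 was the highest of the 3 in each adipose and lung group, at -0.38 and -0.64 in adipose tissue and -0.22 in both lung groups. Library 1 also had the greatest depth of its 3 in these groups: in lung 1.61 and 2.14 against 0.329 or less, and in adipose tissue 2.13 against 0.887 or less (PLZF-) and 0.761 against 0.670 or less (PLZF+). Its T cell marker share was the highest of the 3 in each, at 0.512% and 1.02% in adipose tissue and 0.437% and 0.796% in lung. Its endothelial share was the lowest, at 0.0372% and 0.140% in adipose tissue, where the other libraries held 3.12% to 5.84%, and at 0.0277% and 0.132% in lung, where they held 0.182% to 0.761%. Among adipose libraries, library 1 also had the highest B cell share, at 2.25% (PLZF-) and 2.40% (PLZF+) against 0.377% to 0.790%. Its myeloid share there was the highest too, at 2.25% and 2.66% against 0.771% to 1.55%. In lung its B cell share was the lowest, at 0.801% and 0.595%. The γδ marker share of library 1 was not the highest in PLZF- adipose tissue (0.195% against 0.196%) or PLZF+ lung (0.229% against 0.244%). The part of depth and of other cell types in these values was not tested.

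**Figure D3:**
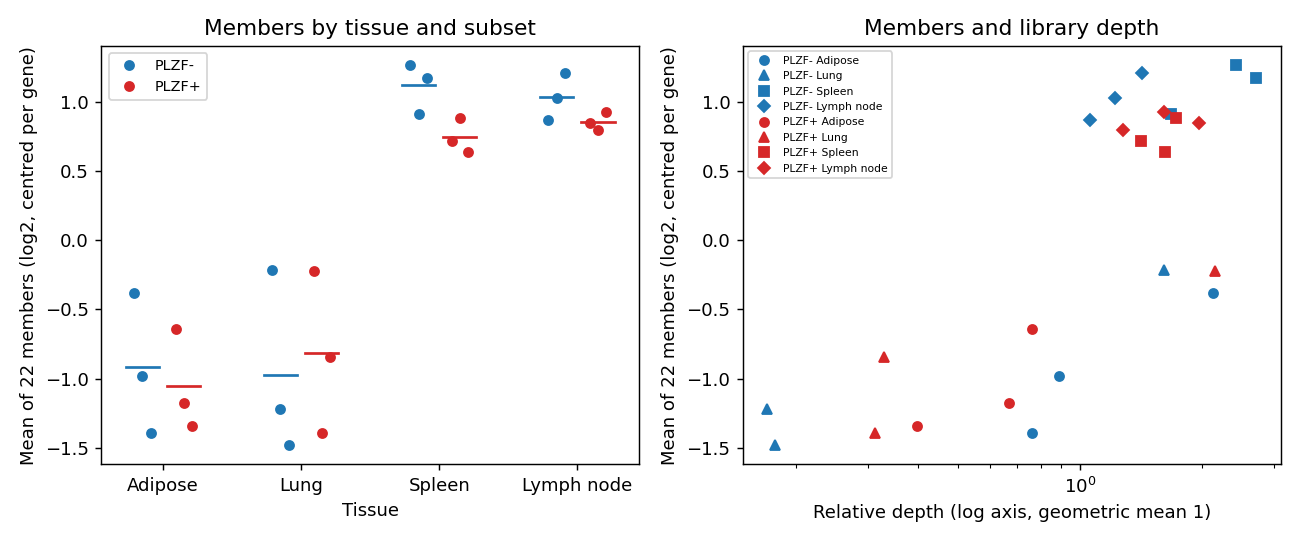
Mean over the 22 genes of the log2 value minus each gene's mean over 24 libraries, by tissue and subset (left; dots are libraries, lines are group means) and against relative library depth on a log axis (right). Adipose and lung libraries range from -1.48 to -0.22 and lymphoid libraries from 0.64 to 1.27; within lung the deepest libraries are the highest.

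The rule did not use the PLZF label, but it did use the values of both subsets. It favours genes with a small spread within each side, so a lack of PLZF calls is conditioned by the choice of genes. With that limit, PLZF+ was compared with PLZF- over the 4 tissues. None of the 22 genes passed (limma, adjusted p under 0.05), where 0.799% of tested genes were higher and 0.659% lower in PLZF+ cells; 2 of the 22 (9.09%) had an unadjusted p under 0.05, as had 9.49% of all tested genes, and voom on the recovered reads called 0 as well. The median difference of the 22 was -0.12 on the log2 scale against 0.08 over all tested genes. Dhx30 differed by -0.35 ± 0.12 (SE; limma adjusted p = 0.26): its PLZF- libraries lay above its PLZF+ libraries in adipose tissue (65.6 to 90.1 against 47.3 to 53.7) and spleen (134 to 148 against 99.2 to 104), and overlapped in lung and lymph node. How many of all tested genes show orders like those of Dhx30 was not counted. AI467606 differed by 0.63 ± 0.25 (SE; limma adjusted p = 0.35).

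Whether the PLZF difference itself changed between lymphoid tissues and adipose tissue with lung was tested as an interaction. The choice of genes conditions this comparison in the same way. None of the 22 genes passed, as for 0% of all tested genes in either direction (limma), with 1 of the 22 and 249 of all tested genes at an unadjusted p under 0.05; voom called 0 of the 22. The 1 was AI467606, at -1.20 on the log2 scale (limma adjusted p = 0.97).

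Spleen was compared with lymph node, which the rule had put on the same side. The rule used these values and favours genes with a small spread over the 12 lymphoid libraries, so a lack of calls here is conditioned by the choice of genes. None of the 22 genes passed in limma or voom, where 3% of all tested genes were higher and 0.759% lower in spleen (limma, adjusted p under 0.05). An unadjusted limma p under 0.05 was found for 0 of the 22 and for 726 of all 5007 tested genes. The differences ran from -0.51 in Mypopos to 0.28 in Traf3ip2, with a median of 0.04. Among all tested genes, 495 (9.89%) had 0 reads in every spleen and lymph node library and stood at -0.43 in this comparison, a value set by library depth alone; none of the 22 was among them.

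Adipose tissue was compared with lung, whose values the rule also used, and 8.79% of tested genes were higher and 14.5% lower in adipose tissue. Of the 22 genes, 1 was lower and 0 higher. Gm11346 differed by -1.84 ± 0.63 (SE; limma adjusted p = 0.042), with 0 to 32.9 normalized reads in adipose and 0 to 49.6 in lung libraries, which overlap. The call was lost with log2 of normalized reads plus 1 (adjusted p = 0.14), with quantile scaling (0.25) and without any of 10 single libraries. The median of the 22 was 0.00 against -0.43 over all tested genes.

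**Figure D4:**
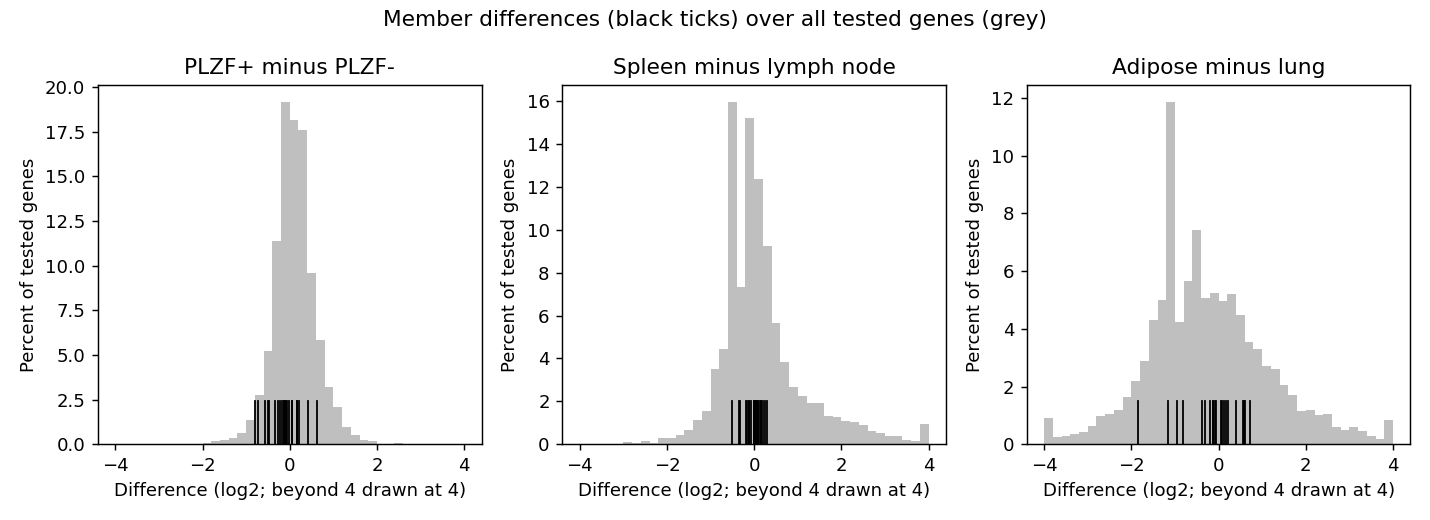
Distribution of log2 differences over all tested genes (grey, percent of genes; values beyond 4 drawn at 4) with the 22 genes as black ticks, for PLZF+ minus PLZF-, spleen minus lymph node and adipose tissue minus lung. The 22 genes lie between -0.51 and 0.28 for spleen minus lymph node, the grey peak near -0.43 there holds the 495 genes without reads, and Gm11346 is the lowest of the 22, at -1.84, for adipose tissue minus lung.

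Of the 22 genes, 19 are annotated as protein coding (86.4%, against 68.1% of the 4973 tested genes with an annotation). The median exon length of the 22 is 3655 bases against 2615. Mypopos, Ngrn, Cdipt and AI467606 lie on chromosome 7. Several share sequence or position with other genes, among them Mitd1 with Lipt1 on the opposite strand and Uba7 with Gm20661, so a share of their reads may belong to a neighbour.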

How the data were processed

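Per the labels, 24 Smart-seq2 libraries were made from sorted γδ T cells of 4 tissues and 2 subsets. HISAT 0.1.6, SAMtools 1.2 and Cufflinks 1.2 with mm10 are named in the submitters' processing notes; the counting is not given in the sources used here. The deposited table holds log2 values with TMM factors of 0.706 to 1.36 per the file headers, and a p-value and q-value per gene by the authors, all q-values under 0.05. No column lacked a sample.

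Each value was the log2 of a whole read number with an offset of 0.5, shifted by a library constant and a gene constant (tolerance 0.02), and reads were recovered for 7919 of 7926 rows (99.9%). The 11 rows merged from several genes were left out. The 22 genes and the gene lists were chosen with earlier results of these data known. Genes reaching a value of 1 in 3 or more libraries (5007, all 22 included) were fitted with limma 3.58.1 in R 4.3.3 over the 8 groups with a variance trend, no replicate block and Benjamini-Hochberg adjustment over all tested genes; the fit was checked on simulated data. Any of the 22 genes could be named by role, with values for those with the largest differences, near the threshold, called, or on a list. Of the 22 genes, 1 is counted but not reported by name here. Positions and overlaps came from GENCODE on GRCm38, similar transcripts from blastn 2.17.0 (95% identity, 200 bases), promoters from RefSeq. Alternatives covered the scale, pseudocount, filter, scaling, voom, shallow libraries, replicate blocks and single libraries.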

Additional observations from a re-analysis of the deposited data

Results flagged for a closer look

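Cand2 stood in opposite orders in PLZF+ and PLZF- cells of adipose tissue and spleen. In adipose tissue each PLZF+ library (9.19, 7.46 and 10.1 normalized reads) lay above each PLZF- library (0, 4.51 and 5.25), a mean difference of 2.34 on the log2 scale. These adipose values rest on 7, 5 and 4 whole reads (PLZF+) against 0, 4 and 4 (PLZF-), so few reads set this order. The share of all tested genes with opposite orders in these tissues was not counted. In spleen each PLZF+ library (28.3, 21.4 and 20.3) lay below each PLZF- library (47.0, 34.7 and 53.1), a mean difference of -0.93. Lung and lymph node gave 0.11 and 0.19. Without the PLZF- adipose library with 0 reads, a setting chosen after seeing the data, the adipose difference was 0.83. Neither PLZF+ against PLZF- over all tissues (limma adjusted p = 0.92) nor the interaction of PLZF with lymphoid tissues (-1.59, limma adjusted p = 0.99) passed, and the difference between adipose tissue and spleen was not tested by itself.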

How the results depend on the processing

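The number of genes chosen, after the names to be left out, was 22 as reported. It was 208 after quantile scaling, 42 without lung libraries 2 and 3 of both subsets, and 0 when a gap of at least 1 on the log2 scale was asked for. Leaving out 1 library gave 22 to 42, with 38 without PLZF- adipose library 1, 36 without PLZF- lymph node library 1, 35 without PLZF+ lung library 1 and 42 without PLZF+ spleen library 3. Leaving out libraries can only add genes to such an order, so that the 22 remain under those settings shows no stability. Of the 22, the count called between adipose tissue and lung was 1 as reported, and 0 with log2 of normalized reads plus 1 or plus 4, quantile scaling, without the shallow lung libraries or with only the groups compared; leaving out 1 library gave 0 to 2, and Gm11346 lost its call without any of 10: PLZF- adipose 2 or 3, PLZF- lymph node 2, PLZF- lung 1 or 3, PLZF+ adipose 2 or 3 and PLZF+ lung 1, 2 or 3. For Gm11346 the adjusted limma p under those 5 settings was 0.14, 0.13, 0.25, 0.054 and 0.16, and its log2 difference, -1.84 as reported, was -1.48, -1.02, -1.29, -3.00 and -1.84. The cause was not tested. The counts for PLZF, its interaction and spleen against lymph node were 0 under all alternatives run. Replicate numbers were the same in all groups: same-numbered PLZF+ and PLZF- libraries had correlated deviations of 0.18 to 0.66 in adipose tissue, lung and lymph node but -0.057 to -0.014 in spleen, and 7 of 12 PLZF- libraries correlated best with their own number, so the numbers were not taken as pairs. With the replicate block the called counts were 0, 0, 0 and 1, as without it. Depth limits the low genes, since 0 reads in a shallow lung library does not show absence.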
